A study of Mus musculus with 3 samples.

Results

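The *Pi16*-high *Krtdap*-low cells of mouse inguinal fat were examined in 3 single-cell RNA-seq libraries, 1 from wild-type (WT) mice, 1 from mice with global deletion of *Mgp* (*Mgp*-KO) and 1 from *Mgp* flox/flox mice carrying *Pdgfra*-Cre (*Pd*-KO). All mice were 4 weeks old, of a C57BL/6 background and on chow, and the stromal vascular fraction of the inguinal depot was sorted to remove CD45-positive and DAPI-positive cells before capture. Both sexes were pooled in each library, so a library holds several mice and cannot show the spread between them. In *Pd*-KO mice the transgene acts wherever the *Pdgfra* promoter has been active, in stromal cells other than adipocyte progenitors too. The same WT library served as the control for both knockouts, since no library of floxed mice without Cre was analysed here.

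Members were chosen from these counts by a fixed rule, and what the rule used is a description of the cells rather than a result. A barcode needed at least 2000 UMIs (unique molecular identifiers, each standing for 1 captured transcript), no more than 10% of them from mitochondrial genes, at least 1 *Pdgfra* UMI, at least 5 *Pi16* UMIs and at most 1 *Krtdap* UMI, with no *Epcam* or *Pecam1* UMI and at most 1 *Top2a* UMI. *Pdgfra* marks stromal progenitors, *Pi16* encodes the secreted peptidase inhibitor 16, *Krtdap* encodes keratinocyte differentiation associated protein, and the last 3 genes mark epithelial, endothelial and dividing cells. The rule gave 7513 members of 31905 barcodes that passed the depth and mitochondrial limits (23.5%). There were 1617 members of 10511 barcodes in WT, 3152 of 12575 in *Mgp*-KO and 2744 of 8819 in *Pd*-KO. The comparison population was the other *Pdgfra*-positive barcodes, which numbered 6085, 5947 and 3630 in the same order. Values in threes below are given in the order WT, *Mgp*-KO and *Pd*-KO throughout.

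The libraries held 184102026, 93212243 and 83942865 UMIs, and a member held a median of 14557, 7359 and 10476 UMIs from 3420, 2566 and 3243 genes. WT members were therefore the deepest, and a cut at a fixed number of UMIs was easier to pass in WT. Cells scored as female from sex-linked transcripts were 26.0%, 49.4% and 26.1% of members, and cells scored as male were 43.4%, 21.4% and 49.3%. The *Mgp*-KO library thus held a larger share of female cells than the others. The 3 libraries shared few barcode sequences among members, 2 between WT and *Mgp*-KO, 2 between WT and *Pd*-KO and 6 between the knockouts. With 1 library per genotype no test between genotypes was possible. The 95% intervals given below cover counting error only, and not the spread between mice. Expression was summed over cells and scaled to the total UMIs of those cells (CPM, the customary scale of RNA-seq), and a gene was called different past 2-fold, after the median gene of each comparison was set to 0 on the log2 scale.

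Interstitial progenitors are the *Dpp4*- and *Pi16*-expressing stromal cells that lie in the connective tissue sheets around and between fat lobules. They sit at the top of the adipocyte lineage, ahead of the committed preadipocytes that *Icam1* marks, and cells of the same expression pattern are found as adventitial fibroblasts in many organs. A further population known as adipogenesis regulators (Aregs), marked by *F3*, holds back adipocyte formation in neighbouring cells. *Mgp* encodes matrix Gla protein, a secreted vitamin K-dependent protein that keeps soft tissue from mineralizing and binds bone morphogenetic proteins.

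The members carried the markers of interstitial progenitors in all 3 libraries. *Dpp4*, a cell-surface peptidase, lies at chr2:62330073-62412231 on GENCODE's GRCm38 gene models and stood at 287, 480.3 and 703 CPM in members against 56.3, 137 and 278 CPM in the other *Pdgfra*-positive cells. The log2 ratios of members over other cells were 2.51, 1.97 and 1.503. *Ly6c1*, a surface protein of fibroblasts and endothelium, reached 1327, 1351 and 1143 CPM against 493, 493 and 671. *Mfap5*, a microfibril protein, was at 3057, 2847 and 3329 CPM against 1078, 1207 and 2174, and *Igfbp6*, which binds insulin-like growth factor II, was at 4020.1, 3169 and 3410.2 CPM against 1906, 1425 and 2139. All 4 markers were higher in members in every library, and for all 4 the ratio was smallest in *Pd*-KO. The *Krtdap*-positive cells with at least 5 *Pi16* UMIs, which the rule places among the other cells, made up 6.01%, 4.54% and 17.3% of that population.

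**Figure D1:**
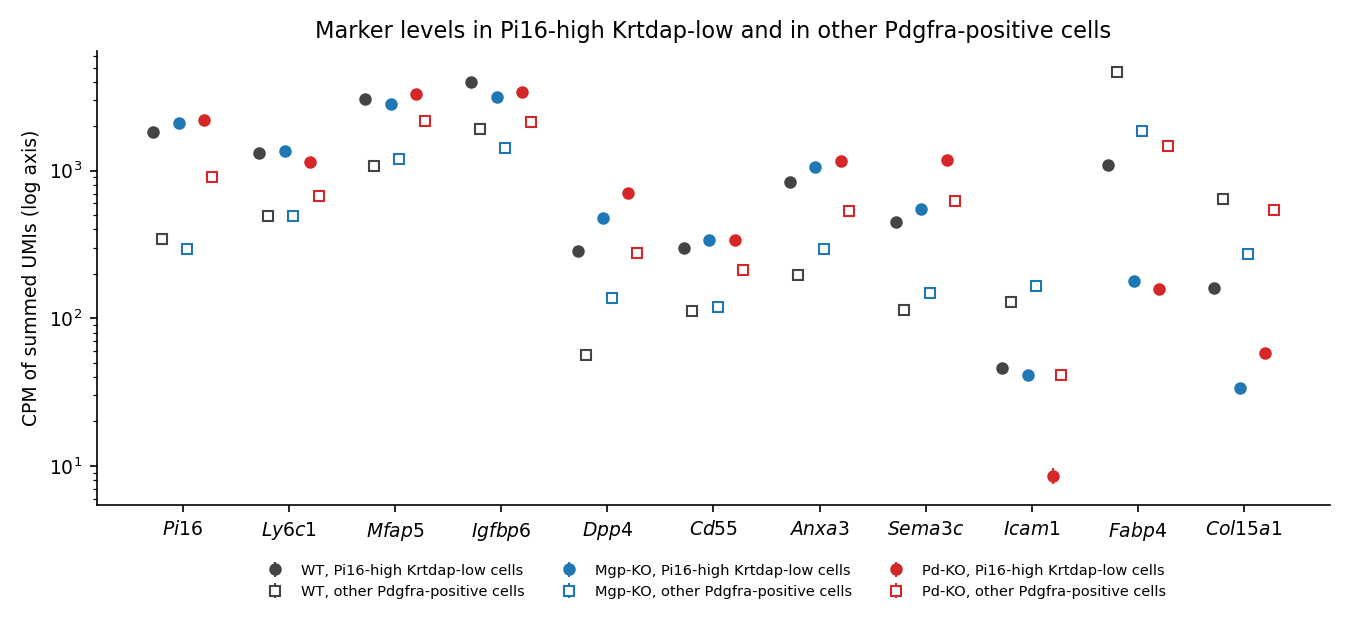
Summed expression (CPM, log axis) of 11 genes in *Pi16*-high *Krtdap*-low cells (filled circles) and the other *Pdgfra*-positive cells (open squares) of each library, with exact 95% Poisson intervals that are mostly smaller than the symbols. *Dpp4*, *Ly6c1*, *Mfap5* and *Igfbp6* lay higher in members in all 3 libraries, and *Icam1*, *Fabp4* and *Col15a1* lay lower; *Pi16* was used to choose the cells.

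Detection in single cells separated members from the other *Pdgfra*-positive cells for both *Dpp4* and *Ly6c1*. After each cell was thinned to 2000 UMIs, *Dpp4* was found in 43.2%, 59.99% and 72.0% of members (87.0%, 92.1% and 97.8% without thinning) and in 8.78%, 18.9% and 27.7% of the other *Pdgfra*-positive cells. Endothelial cells were taken as *Pecam1*-positive *Pdgfra*-negative barcodes, with a median of 6815, 3641 and 4111 UMIs. They showed *Dpp4* in 1.14%, 1.03% and 2.95%, a guide to what free RNA can give for this gene alone. In the same cells *Mfap5* was found in 23.4%, 7.18% and 6.07% and *Igfbp6* in 31.2%, 7.18% and 6.24%, both highest in WT. In members *Mfap5* was found in 96.5%, 95.9% and 97.8% and *Igfbp6* in 98.4%, 98.0% and 98.5%. The part of free RNA in these shares was not tested. *Ly6c1* was found in 83.1%, 88.1% and 84.3% of members, in 43.2%, 44.4% and 51.1% of the other *Pdgfra*-positive cells and in 79.2%, 84.1% and 83.5% of endothelial cells. The shares for *Ly6c1* in members were thus close to those in endothelial cells.

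Cells just inside and just outside the limits of the rule are compared here without a test. WT cells with exactly 5 *Pi16* UMIs (95 members) had *Dpp4* at 123 CPM, and those with 4 (132 cells outside) at 95.6 CPM. The same pair of values was 464 and 382 CPM in *Mgp*-KO and 603 and 588 CPM in *Pd*-KO. *Icam1* was at 46.9 CPM inside and 109.8 CPM outside in WT, 62.7 and 53.2 CPM in *Mgp*-KO and 24.3 and 4.23 CPM in *Pd*-KO, so the direction differed between libraries. *Fabp4* was at 1640.0 and 1397 CPM in WT, and lower inside than outside in the knockouts, at 159 and 318 CPM in *Mgp*-KO and 128 and 288 CPM in *Pd*-KO. At the *Krtdap* limit, *Sbsn*, which encodes suprabasin and lies beside *Krtdap* in the genome, stood at 332, 433 and 461 CPM in members with 1 *Krtdap* UMI and at 437, 564 and 550 CPM in excluded cells with 2. Of barcodes that met every other condition, 175, 995 and 443 had no *Pdgfra* UMI, and the *Epcam*, *Pecam1* and *Top2a* conditions removed 295, 120 and 144. The barcodes without a *Pdgfra* UMI carried *Dpp4* at 280.3, 501 and 625 CPM.

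Compared with the other *Pdgfra*-positive cells, members had the Wnt antagonists *Sfrp2* and *Sfrp4* and many interstitial progenitor genes at higher levels and all genes of a committed preadipocyte list at lower levels. Of 11756 genes with at least 100 UMIs in each comparison, 146 (1.24%) were over 2-fold higher in members in every library and 508 (4.32%) were over 2-fold lower. Without setting the median gene to 0 the split was 80 higher and 626 lower. Because the members were picked on *Pi16*, these differences describe the chosen cells and carry no test.

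Several of the higher genes encode secreted proteins. *Sfrp2*, a secreted Wnt antagonist, was at 1059, 1048 and 1112 CPM in members and 199, 333 and 367 CPM in the other cells, and *Sfrp4*, of the same family, gave log2 ratios of 2.36, 2.16 and 1.55. The ligand genes *Wnt2* (1.75, 1.24 and 1.19) and *Wnt10b* (2.20, 2.34 and 1.00) were also past 2-fold. These were the 4 higher genes of 20 measured Wnt ligands, receptors and antagonists, with *Wnt4* the single lower gene and a median log2 ratio of 0.42. *Bmp7*, a bone morphogenetic protein, had log2 ratios of 2.19, 2.28 and 1.198, and *Edn1*, which encodes endothelin 1, had 2.55, 2.23 and 1.43. *Sema3b*, *Sema3c* and *Sema3d*, secreted guidance proteins, were higher by 2.13, 2.04 and 1.08 for *Sema3c* and 2.14, 2.12 and 1.32 for *Sema3d*, whereas the receptor genes *Nrp2* and *Plxnd1* were lower and so was *Robo2*. *Smpd3*, a neutral sphingomyelinase, had log2 ratios of 2.70, 2.38 and 1.499.

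Of a further list of 20 interstitial progenitor genes, 8 were over 2-fold higher in members in every library, none was lower, and the median log2 ratio was 1.59 against 0 for all genes. The *Krtdap*-positive cells carried more of this list, at a summed 6255, 7994 and 9863 CPM against 4048, 5489 and 7137 CPM in members. Over them 1 gene was higher in members in every library and 3 were lower (median -0.69). Of all genes, 0.336% were higher and 0.244% lower in that comparison. Over the other *Pdgfra*-positive cells, the higher genes included *Anxa3*, a calcium-dependent phospholipid-binding protein. It was at 836, 1052 and 1154 CPM against 196, 293 and 537. *Aldh1a3*, which makes retinoic acid, was another, with log2 ratios of 2.20, 2.01 and 1.08. *Stmn4* (log2 1.77, 1.32 and 0.24) and *Limch1* (1.73, 2.05 and 0.71) were past 2-fold in WT and *Mgp*-KO and short of it in *Pd*-KO. *Tppp3*, a marker of vessel-associated stromal cells, differed little, with 0.28, 0.09 and -0.24.

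Few extracellular matrix genes passed 2-fold. *Eln*, which encodes elastin, stood at 1137, 1101 and 2809.8 CPM in members and 398, 406 and 1062 CPM in the other cells, and it was the single gene of 14 elastic fibre and microfibril genes past 2-fold in every library, although the list median was 0.80. None of 12 collagen genes passed 2-fold in every library, with a median log2 ratio of 0.47. *Col1a1*, the chain of type I collagen, was at 18432, 13381 and 24159 CPM in members and 10546, 8703 and 15927 CPM in other cells. Among 16 small proteoglycans and glycoproteins, *Ogn*, *Aspn* and *Fn1* were higher and *Tnc* was lower, and the median was 0.16. Of 12 basement membrane genes, which adipocyte-lineage cells use to build their envelope, *Col4a1*, *Col4a2* and *Col18a1* were lower and none was higher. *Col4a1* was at 561, 249 and 189.7 CPM in members against 1723, 1193 and 1471 CPM.

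All 12 genes of a committed preadipocyte list were over 2-fold lower in members in every library, with a median log2 ratio of -1.79. *Fabp4*, a fatty acid binding protein of the adipocyte lineage, was at 1086, 180.1 and 157 CPM in members and 4694, 1844 and 1465 CPM in other cells. *Pparg*, the master transcription factor of adipocyte formation, was at 17.4, 11.9 and 17.9 CPM against 60.9, 61.4 and 113. *Icam1*, which encodes an adhesion molecule, was at 45.7, 41.0 and 8.49 CPM against 129, 166 and 41.2, and *Col15a1* at 161, 33.8 and 57.9 against 644, 274 and 545. After thinning to 2000 UMIs, *Icam1* was detected in 6.74%, 5.93% and 1.35% of members and in 19.5%, 22.6% and 8.07% of other *Pdgfra*-positive cells. *Fabp4* was present in barcodes of 10 to 100 UMIs, which hold mostly free RNA, at 2402, 3816 and 3458 CPM, so part of its UMIs in members may be free RNA and this was not tested. All 4 measured cycling genes were lower, beside the limit on *Top2a* in the rule, and 4 of 19 immediate early and heat shock genes were lower with a median of -0.77.

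Further pathway lists gave mixed counts. None of 16 components of transforming growth factor beta (TGF-beta) signalling and none of 15 interferon response genes was past 2-fold in every library. Among 21 bone morphogenetic protein components and Id targets, *Bmp7* was higher and *Bmper* was lower. *Igfbp2*, an insulin-like growth factor binding protein, and *Pappa*, a protease that cleaves such proteins, were the 2 lower genes of 13 in that axis. Of 8 measured genes of chondrogenic Sox factors and mineralization, 4 were lower and none was higher, with a median log2 ratio of -1.002. *Runx2*, a transcription factor of bone formation, was at 2.25, 3.58 and 1.90 CPM in members against 11.002, 41.0 and 21.3 CPM, and *Sox9*, of cartilage formation, was at 6.79, 6.61 and 4.40 CPM against 20.0, 18.8 and 16.2 CPM.

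The members were not uniform, and expression differed across bins of *Pi16* UMIs. Among *Pdgfra*-positive cells with at most 1 *Krtdap* UMI in WT, *Dpp4* was at 13.5 CPM in cells with no *Pi16* UMI, at 42.6 CPM with 2 to 4, at 144 CPM with 5 to 9 and at 373 CPM with 40 or more. Over the same bins *Mfap5* went from 613 to 4044 CPM and *Icam1* from 157 to 24.01 CPM. *Fabp4* went from 5149 CPM in the bin without *Pi16* to 715 CPM in the highest bin. In the knockouts *Dpp4* was already high at few *Pi16* UMIs, with 351 CPM in *Mgp*-KO and 455 CPM in *Pd*-KO in cells with 2 to 4 UMIs, and 514 and 729 CPM in the highest bin. Equal bins were not equal levels across libraries. Cells with 2 to 4 *Pi16* UMIs had a median of 14455, 6635.5 and 8576 UMIs and *Pi16* at 166, 402 and 334 CPM. In WT the largest relative difference of *Dpp4*, *Anxa3* and *Mfap5* between neighbouring bins was from 2 to 4 UMIs to 5 to 9. *Anxa3* was at 128 and 446 CPM in these bins and *Mfap5* at 979 and 2030.1 CPM. It was not a step at the limit itself, since WT cells with exactly 4 and 5 *Pi16* UMIs were closer. They had *Dpp4* at 95.6 and 123 CPM and *Mfap5* at 1604 and 1727 CPM. The median depth of the bins ran from 12533 to 15857 UMIs in WT, and *Pi16* UMIs rise with depth, so the bins also sort cells by depth to that extent.

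**Figure D2:**
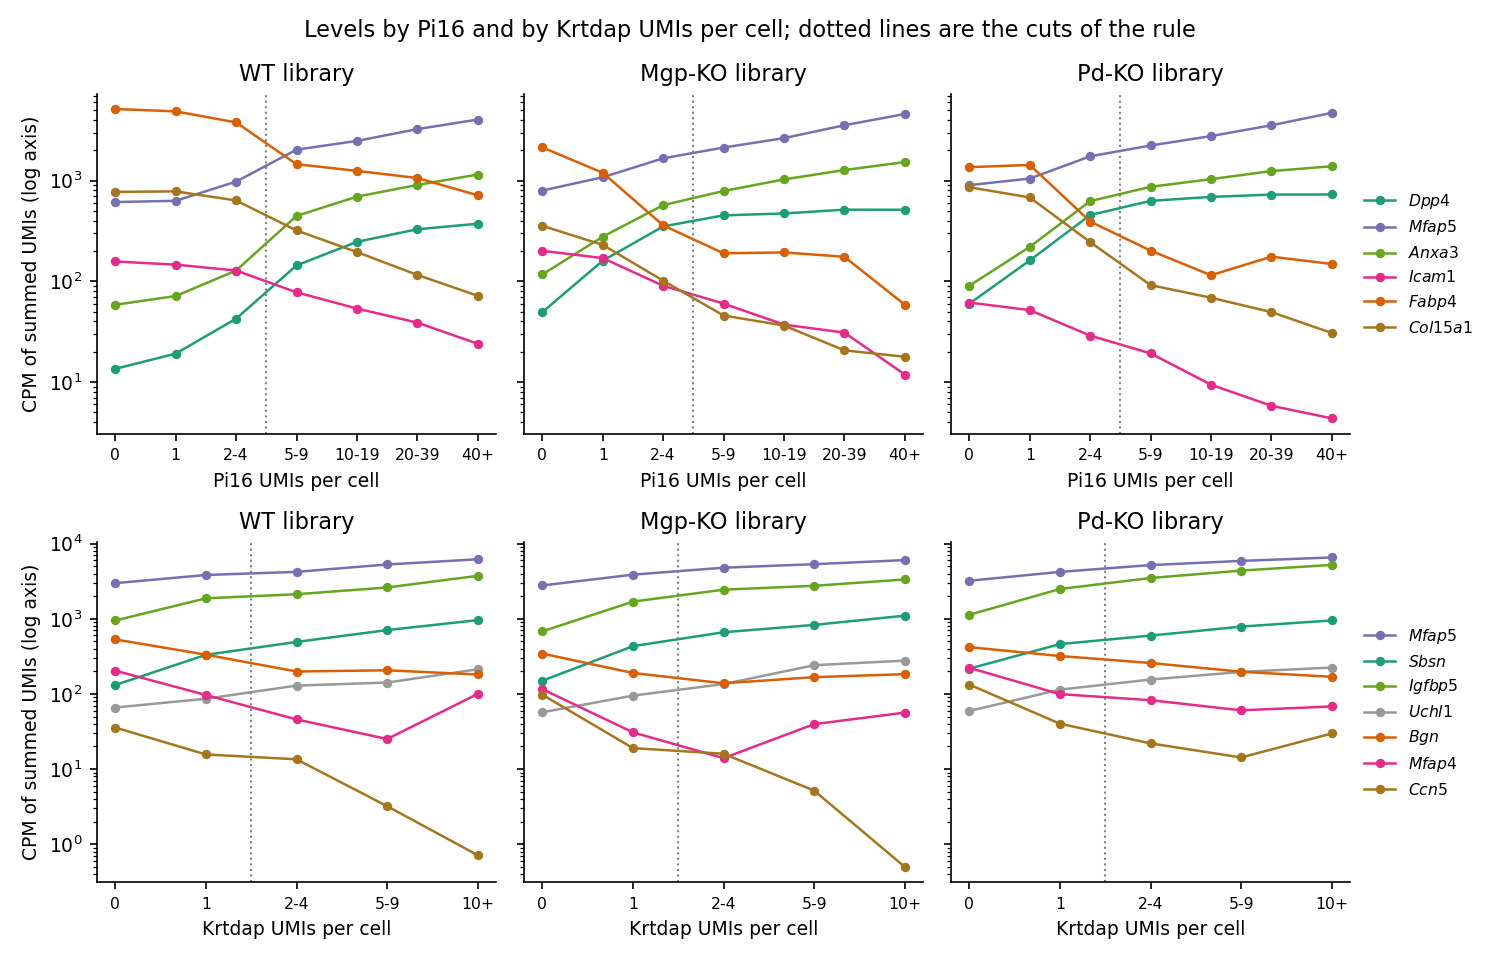
Top row, expression (CPM, log axis) of *Dpp4*, *Mfap5*, *Anxa3*, *Icam1*, *Fabp4* and *Col15a1* by the number of *Pi16* UMIs per cell among *Pdgfra*-positive cells with at most 1 *Krtdap* UMI. Bottom row, *Mfap5*, *Sbsn*, *Igfbp5*, *Uchl1*, *Bgn*, *Mfap4* and *Ccn5* by the number of *Krtdap* UMIs among cells with at least 5 *Pi16* UMIs. Columns are the 3 libraries, the dotted line is the limit of the rule, and values under 0.5 CPM are drawn at 0.5. *Dpp4* and *Mfap5* were higher and *Icam1* and *Fabp4* lower at the *Pi16*-rich end, and *Sbsn* and *Igfbp5* were higher and *Ccn5* lower at the *Krtdap*-rich end.

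A second axis ran along *Krtdap*. The excluded *Krtdap*-positive cells, with at least 2 *Krtdap* UMIs and at least 5 *Pi16* UMIs, numbered 366, 270 and 628, and were 18.5%, 7.89% and 18.6% of all *Pi16*-high cells. Of 9833 genes, 33 (0.336%) were over 2-fold higher in members than in these cells in every library and 24 (0.244%) were over 2-fold lower. *Gas6*, a ligand of the Axl receptor family, was at 66.9, 91.1 and 79.0 CPM in members and 17.4, 9.60 and 23.6 CPM in *Krtdap*-positive cells. *Mfap4*, an elastic fibre glycoprotein, gave log2 ratios of 1.92, 2.21 and 1.5004, and *Igf1*, insulin-like growth factor 1, gave 1.05, 1.45 and 1.202. On the other side, *Dmkn* and *Sbsn*, both neighbours of *Krtdap*, had log2 ratios of -3.62, -3.90 and -3.01 and -2.15, -2.11 and -1.51. *Igfbp5* was at 1029.6, 743 and 1291 CPM in members against 2644, 2605 and 4006 CPM, and *Dact2*, an inhibitor of Wnt and TGF-beta signalling, had log2 ratios of -1.61, -1.38 and -1.63. *Dpp4* differed little between the populations, at 343, 472 and 678 CPM in *Krtdap*-positive cells, and *Mfap5* was higher there at 5002, 5044 and 5596 CPM.

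Within members, cells with *Ccn5* had lower levels of genes that were high in the *Krtdap*-positive population. *Ccn5* encodes a secreted matricellular protein and was found in 16.02%, 22.9% and 29.1% of members (4.76%, 11.4% and 12.8% after thinning to 2000 UMIs, against 0.49%, 0.51% and 0.17% of endothelial cells). In WT, the 82 members with 3 or more *Ccn5* UMIs had *Igfbp5* at 291 CPM against 1163 CPM in the 1358 without, and *Sbsn* at 44.6 against 169.6 CPM. The same cells had *Mfap4* at 695 against 146 CPM and *Sfrp2* at 2542 against 874 CPM. In *Mgp*-KO, the 281 members with 3 or more *Ccn5* UMIs had *Igfbp5* at 146 CPM and *Mfap4* at 381 CPM, against 934 and 64.8 CPM in those without. In *Pd*-KO the 372 such members had *Igfbp5* at 175 CPM and *Mfap4* at 640.2 CPM, against 1751 and 96.4 CPM. *Dpp4* was close in both kinds of cell, at 252 against 291 CPM in WT, 431 against 494 CPM in *Mgp*-KO and 685 against 699 CPM in *Pd*-KO. Cells with more *Ccn5* UMIs were also deeper, with a median of 18005 against 14131 UMIs in WT.

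*Mgp* itself was checked in every library before the genotypes were compared. The gene lies at chr6:136872435-136875823 on the minus strand (GENCODE, GRCm38), and members held 13242, 9 and 44 *Mgp* UMIs, or 541, 0.358 and 1.47 CPM. It was found in 44.9%, 0.286% and 0.547% of members, and 27 of the 44 UMIs in *Pd*-KO came from 1 cell. After thinning to 2000 UMIs it was found in 16.6%, 0.159% and 0.255% of members and in 17.6%, 0% and 2.43% of endothelial cells. Detection in WT was thus no higher in members than in endothelial cells, and the part of free RNA in it was not tested. Both knockout libraries therefore carried the loss of *Mgp* that their labels state.

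In WT members, *Mgp* expression was concentrated in few cells, and these carried Areg markers. Of the 1617 WT members, 891 (55.1%) had no *Mgp* UMI, and 35 (2.16%) had 100 or more and held 67.0% of all *Mgp* UMIs of members. Another 99 members with 10 to 99 UMIs (6.12%) held 24.6%. In the 35 cells *F3*, tissue factor, was at 598 CPM against 16.5 CPM in members without *Mgp*, *Gdf10*, a ligand of the TGF-beta superfamily, at 651 against 57.2 CPM, and *Fmo2*, a flavin monooxygenase, at 771 against 15.1 CPM. *Clec11a*, a secreted growth factor, was at 395 against 36.3 CPM and *Meox2*, a homeobox factor, at 202 against 6.88 CPM. The same 35 cells were at the low end for interstitial markers, with *Pi16* at 784 against 1981 CPM and *Dpp4* at 32.6 against 316 CPM. These bins were chosen after the values had been seen.

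**Figure D3:**
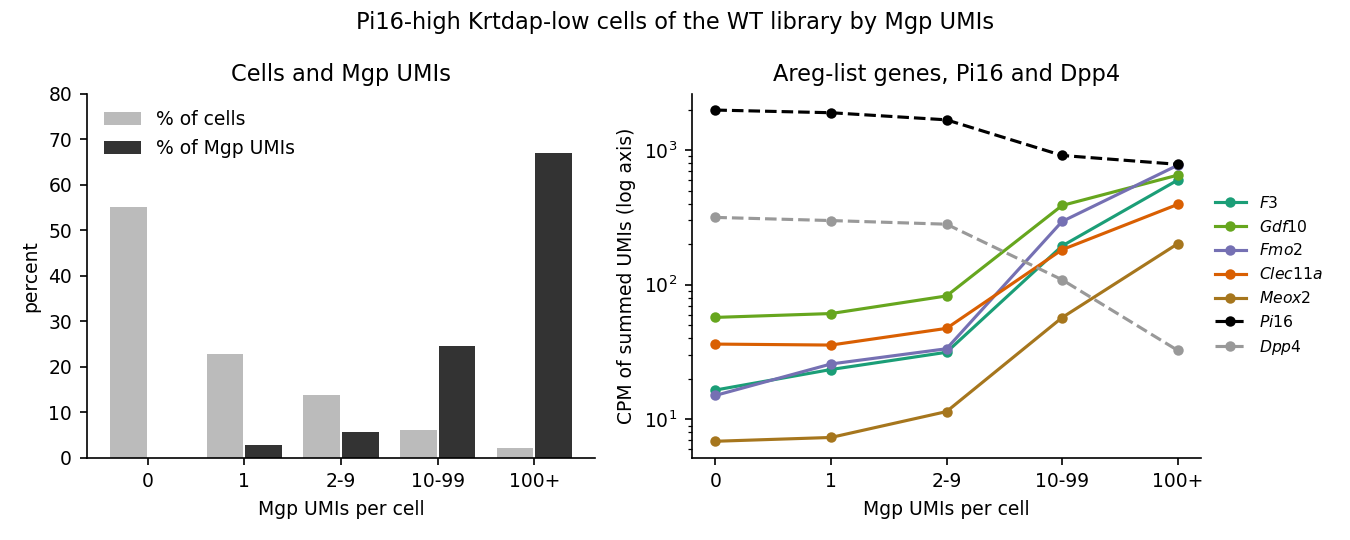
WT members grouped by *Mgp* UMIs per cell. Left, the share of members and the share of all their *Mgp* UMIs (percent) in each bin. Right, expression (CPM, log axis) of the Areg genes *F3*, *Gdf10*, *Fmo2*, *Clec11a* and *Meox2*, with *Pi16* and *Dpp4* as dashed lines. The 35 cells with 100 or more *Mgp* UMIs were 2.16% of members and held 67.0% of the UMIs, and the Areg genes were highest and *Dpp4* lowest in that bin.

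A class of cells was then set from the 7 Areg genes alone (*F3*, *Gdf10*, *Vit*, *Clec11a*, *Fmo2*, *Meox2* and *C2*), also after values had been seen, as those with at least 5 UMIs of the list after thinning to 5000 UMIs. It held 7.05% of WT members (95% interval, 5.82 to 8.45, 108 of 1531), 2.80% of *Mgp*-KO members (2.20 to 3.52, 72 of 2570) and 2.08% of *Pd*-KO members (1.57 to 2.71, 54 of 2596). Among other *Pdgfra*-positive cells it held 15.9%, 8.60% and 16.4%. The WT members of the class had *Mgp* at 5897 CPM and held 73.0% of the members' *Mgp* UMIs, against 158 CPM in the rest. The class is a range of a sum and not a cell type, with 25 WT members at 4 UMIs and 12 at 5. When the rule for members was itself applied after thinning, so that *Pi16* was read at equal depth, the shares were 3.86% (2.72 to 5.31), 2.14% (1.52 to 2.93) and 1.87% (1.30 to 2.59). The WT and *Mgp*-KO intervals then overlapped.

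Across *Pi16* bins of WT cells with at most 1 *Krtdap* UMI, *Mgp* was highest at the edge of the rule. It stood at 437 CPM without *Pi16*, 898 CPM with 2 to 4 *Pi16* UMIs, 1342 CPM with 5 to 9, 199 CPM with 20 to 39 and 76.1 CPM with 40 or more. Cells with at least 10 *Mgp* UMIs were 12.7% of the bin without *Pi16*, 21.2% of the bin with 2 to 4, 19.1% of the bin with 5 to 9 and 2.54% of the highest bin. *Krtdap*-positive cells had *Mgp* at 65.9 CPM, against 541 CPM in members and 457 CPM in the other *Pdgfra*-positive cells.

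Members made up a larger part of the *Pdgfra*-positive cells in both knockout libraries. They were 20.99% (exact 95% interval, 20.1 to 21.9) in WT, 34.6% (33.7 to 35.6) in *Mgp*-KO and 43.0% (41.8 to 44.3) in *Pd*-KO. The differences from WT were 13.6 and 22.1 percentage points, and the knockouts were 8.41 points apart. After thinning each cell to 5000 UMIs the shares were 18.4%, 30.1% and 40.8%, and in cells of 5000 to 10000 UMIs they were 19.5%, 35.6% and 37.7%. The order of the libraries was the same in all 8 settings tried, whereas the distance between the knockouts ranged from 2.03 to 13.0 points. Female cells gave 15.8%, 28.2% and 34.5% and male cells 24.1%, 44.5% and 49.7%, so the order also held within each sex. A share can be larger because other *Pdgfra*-positive cells are fewer, and how many cells of each kind the tissue held was not measured.

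**Figure D4:**
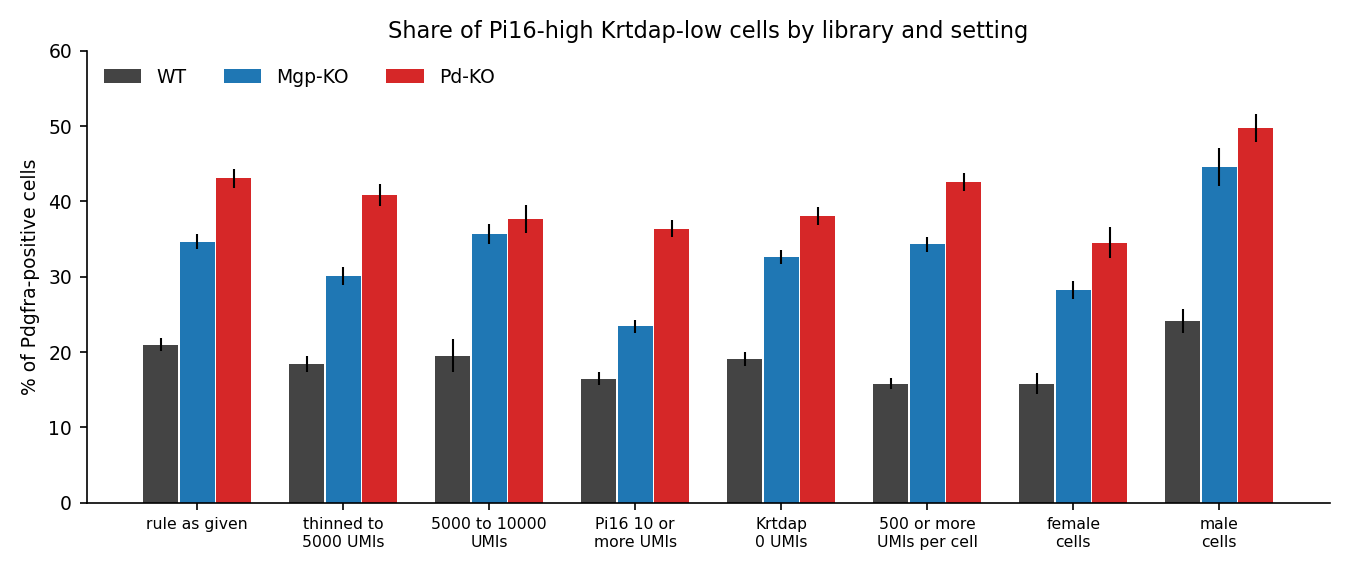
Members as a percent of all *Pdgfra*-positive cells in each library, under the rule and 7 other settings, with exact 95% binomial intervals that cover counting error only. In each setting WT was the lowest and *Pd*-KO the highest of the 3 libraries, and the *Mgp*-KO and *Pd*-KO bars were closest in cells of 5000 to 10000 UMIs.

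Of the 4 markers outside the rule, *Dpp4* alone was past 2-fold between genotypes, in *Pd*-KO over WT. *Ly6c1* gave log2 ratios over WT of -0.09 in *Mgp*-KO and -0.37 in *Pd*-KO. For *Mfap5* they were -0.22 in *Mgp*-KO and -0.04 in *Pd*-KO, and for *Igfbp6* they were -0.46 in *Mgp*-KO and -0.40 in *Pd*-KO. *Dpp4* gave 0.62 (95% interval, 0.58 to 0.67) in *Mgp*-KO and 1.13 (95% interval, 1.09 to 1.17) in *Pd*-KO, and *Pd*-KO exceeded *Mgp*-KO by 0.49 (95% interval, 0.46 to 0.52). *Sema3c* was at 446, 546 and 1175 CPM, with 0.17 in *Mgp*-KO and 1.24 in *Pd*-KO. The spans of *Dpp4* and *Sema3c* are 82.2 and 156 kb, and span moved with the ratios over WT, as follows.

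The log2 ratios of both knockouts over WT were larger for genes of longer genomic span. In the comparison of *Mgp*-KO with WT, 1316 of 11364 genes (11.6%) were over 2-fold higher and 264 (2.32%) lower, and for *Pd*-KO 1731 of 11592 (14.9%) were higher and 509 (4.39%) lower. Among genes over 200 kb, 78.0% of 631 were over 2-fold higher in *Mgp*-KO and 82.9% of 656 in *Pd*-KO, with medians of 1.82 and 2.02. Among genes under 5 kb the medians were -0.25 and -0.47. Between the knockouts the span mattered less, with medians from -0.24 under 5 kb to 0.23 over 200 kb, and 136 of 11714 genes (1.16%) were higher in *Pd*-KO and 309 (2.64%) lower. File headers name Cell Ranger version 4 for WT and 7.1.0 for both knockouts, and these versions differ in whether intronic reads are counted by default. Genotype and this difference between the files cannot be told apart for the comparisons with WT. The genes named by rank as higher in both knockouts all had long spans, such as *Sox5* (10.3, 235 and 316 CPM, 954 kb), *Magi2* (1478 kb) and *Prkg1*. Both comparisons also share the WT library, so a gene that is high or low in WT moves both.

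**Figure D5:**
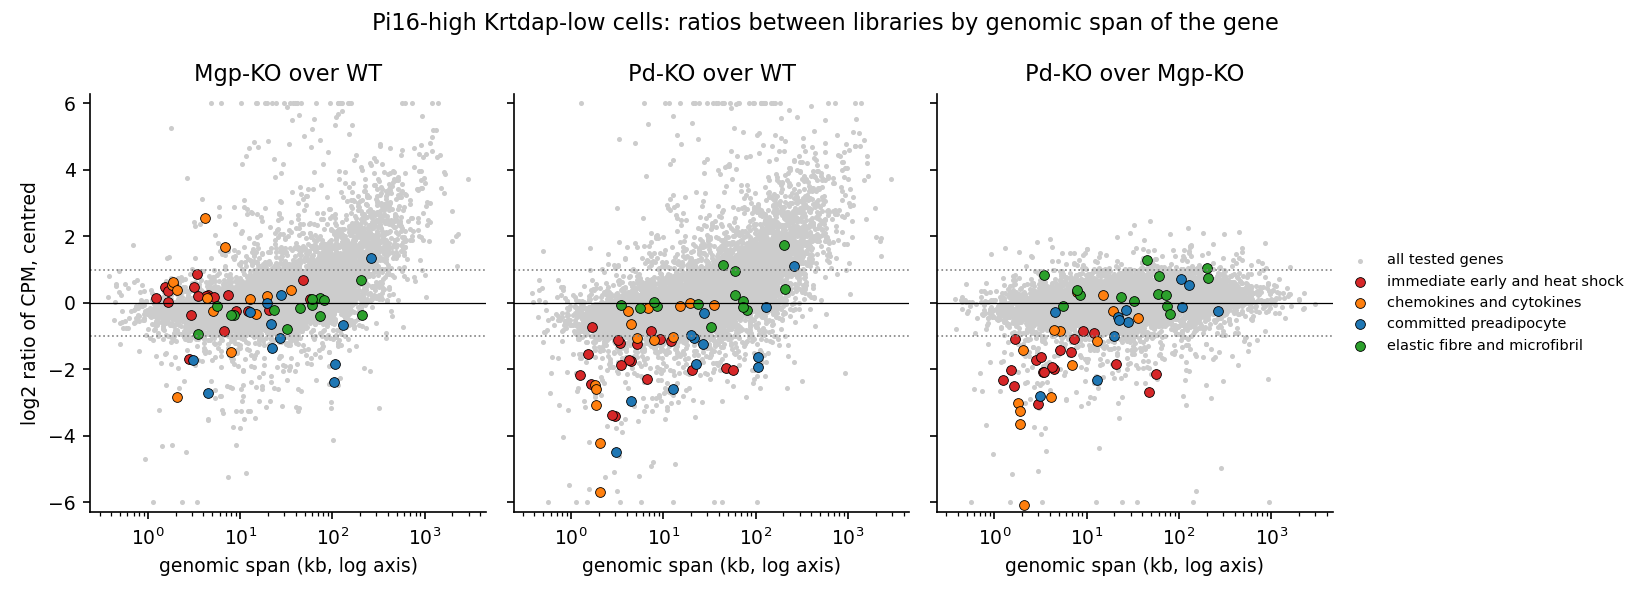
Log2 ratio of summed CPM in members, centred on the median gene, against gene span (kb, log axis) for *Mgp*-KO over WT, *Pd*-KO over WT and *Pd*-KO over *Mgp*-KO. Grey points are all genes tested (drawn within -6 to 6), and coloured points are immediate early and heat shock genes (red), chemokines and cytokines (orange), committed preadipocyte genes (blue) and elastic fibre genes (green), with dotted lines at 2-fold. Ratios over WT were higher at long spans in both knockouts, and the red points lay low in both panels of *Pd*-KO.

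Among genes under 20 kb, a limit set after the values were seen, 101 of 4889 were over 2-fold higher and 162 lower in *Mgp*-KO (median -0.19). In *Pd*-KO 113 of 4968 were higher and 360 lower (median -0.32). In *Pd*-KO over *Mgp*-KO 37 of 4967 were higher and 192 lower (median -0.15). Lists of short genes are to be read against these counts beside the shares of all genes. *Tnfaip6*, a secreted hyaluronan-binding protein induced by inflammation, was at 224, 1776 and 522 CPM, with log2 ratios of 2.86 in *Mgp*-KO and 1.06 in *Pd*-KO. The *Mgp*-KO library was the highest and WT the lowest. *Ccn5* was at 34.0, 92.9 and 122 CPM, and *Plac8* at 511, 1163 and 941 CPM. *Mmp14*, a membrane-bound matrix metalloproteinase, was at 226, 390.4 and 484 CPM. *Ccn5* and *Plac8* were the 2 of 4 genes of the fibroblast-like list past 2-fold in *Mgp*-KO, both higher. *Ccn5* and *Cilp* (35.0, 41.8 and 85.8 CPM) were past 2-fold in *Pd*-KO, also higher. Of all genes 11.6% and 14.9% were higher. All 4 genes of the list span under 20 kb, where 101 of 4889 and 113 of 4968 genes were higher. *Sfrp2* of the same list was nearly level at 1059, 1048 and 1112 CPM.

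Many genes of the adipocyte lineage were lower in members of the knockouts than in WT. Of 12 committed preadipocyte genes, 6 were over 2-fold lower and 1 higher in *Mgp*-KO (median log2 ratio -0.86), and 8 were lower and 1 higher in *Pd*-KO (median -1.44), against medians of 0 and shares of 2.32% and 4.39% lower for all genes. *Fabp4* was at 1086, 180.1 and 157 CPM, with log2 ratios of -2.71 in *Mgp*-KO and -2.95 in *Pd*-KO, and *Cd36*, a fatty acid transporter, gave -1.84 in *Mgp*-KO and -1.93 in *Pd*-KO. *Apoe*, apolipoprotein E, was highest in WT and lowest in *Pd*-KO at 2704, 898 and 134 CPM, with log2 ratios of -1.71 in *Mgp*-KO and -4.49 in *Pd*-KO. *Lpl*, lipoprotein lipase, was at 1023, 540.0 and 484 CPM, and *Col15a1* at 161, 33.8 and 57.9 CPM. The higher gene was *Bmper*, an extracellular regulator of bone morphogenetic proteins that spans 262 kb. *Pparg*, of 129 kb, was within 2-fold at 17.4, 11.9 and 17.9 CPM. Of 8 early adipocyte genes, 5 were lower in each knockout, among them *Car3* at 95.9, 5.37 and 15.1 CPM. All 8 span under 20 kb, where 162 of 4889 genes were lower in *Mgp*-KO and 360 of 4968 in *Pd*-KO. The summed level of the committed preadipocyte list was 5329.5, 1974 and 1063 CPM in members, and the order was the same in other populations. It was 17682, 8246 and 6088 CPM in the other *Pdgfra*-positive cells, 3626, 1437 and 806 CPM in *Krtdap*-positive cells, and 10942, 7946 and 6347 CPM in free RNA. In the barcodes read as free RNA *Fabp4* was lowest in WT, at 2402, 3816 and 3458 CPM. In members it was found in 98.8%, 22.6% and 28.6% of cells. The barcodes read as free RNA held erythrocyte markers at 31891, 1326 and 626 CPM. The WT library had 35992 barcodes of at least 500 UMIs and 10937 of at least 2000. The same counts were 13309 and 12579 in *Mgp*-KO and 10000 and 9006 in *Pd*-KO. Whether the barcodes read as free RNA stand for the free RNA in WT members was not tested. The part of free RNA in the members' levels was not tested.

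The summed levels of mural, endothelial and epithelial markers were also highest in WT members. The summed level of 7 mural markers was 375, 43.1 and 66.4 CPM, led by *Acta2* at 181, 18.0 and 25.8 CPM, and no gene of that list was at 0. In free RNA *Acta2* was at 527, 259 and 148 CPM. The 7 endothelial markers summed to 50.3, 26.4 and 27.2 CPM, where *Pecam1* is at 0 by the rule. The 8 epithelial markers summed to 31.4, 16.1 and 7.495 CPM, where *Epcam* is at 0 by the rule, and the 5 Schwann cell markers to 31.1, 25.8 and 36.2 CPM, led by *Mbp*. Of the 3 Schwann cell markers with enough UMIs to compare, 2 were over 2-fold lower in each knockout than in WT (medians -2.51 and -1.68) and none was higher. Of all genes, 2.32% were lower in *Mgp*-KO and 4.39% in *Pd*-KO. Leukocyte markers stayed at 3.39, 0.876 and 1.27 CPM, led in WT by *Cd74*, and 2 of 5 mesothelial genes were at 0, the rest being led by *Krt19* and summing to 22.2, 18.9 and 22.1 CPM. *Glycam1*, which encodes a mucin-like protein of milk and of lymph node vessels, was at 66.3, 0.199 and 1.97 CPM in members and 404, 62.0 and 462 CPM in free RNA. Leaving out members with 10 or more UMIs of these other cell types, chosen after seeing the data, removed 117 WT (7.24%), 21 *Mgp*-KO and 30 *Pd*-KO cells. *Acta2* was then at 42.1, 2.49 and 1.83 CPM, *Fabp4* at 814, 159 and 129 CPM and *Apoe* at 2613, 895 and 133 CPM. Doublets were not called, and how far mixed barcodes account for these levels was not tested.

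As a list, immediate early and heat shock genes were lowest in *Pd*-KO, in members and in the other *Pdgfra*-positive cells. These genes respond within minutes to growth signals and to the stress of tissue dissociation. Of 19 such genes, 17 were over 2-fold lower in *Pd*-KO than in WT (median log2 ratio -1.73), where 4.39% of all genes were lower. Against *Mgp*-KO 17 were lower (median -1.93), where 2.64% of all genes were lower. Of the 16 under 20 kb, 14 were lower in each comparison, where 360 of 4968 and 192 of 4967 genes of that span were. Without setting the median gene to 0, 14 of 19 were lower than in WT. In male cells 14 were lower than in *Mgp*-KO. *Mgp*-KO and WT differed in 1 of the 19, *Hspa1b*, with a median of 0.18. *Fos* was at 936, 1844 and 452 CPM, *Atf3* at 187, 328 and 53.3 CPM and *Dusp1*, which shuts off stress kinases, at 444, 519.5 and 123 CPM. *Hspa1a*, an inducible heat shock protein, was at 149, 127 and 15.9 CPM. The summed level of the list was also lowest in *Pd*-KO in the other *Pdgfra*-positive cells, at 15696, 19420 and 7196 CPM, and in free RNA, at 19050, 18021 and 5769 CPM. Time from tissue to capture is not given for each library and its part in the result was not tested.

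Many chemokines were also lowest in *Pd*-KO members. In *Pd*-KO, 8 of 14 were over 2-fold lower than in WT (median -1.04) and none was higher, where 4.39% of all genes were lower. Against *Mgp*-KO 8 were lower (median -1.28) and none was higher, where 2.64% of all genes were lower. Of the 14 genes, 13 span under 20 kb, among them the 8 lower genes of each comparison. Of all genes under 20 kb, 360 of 4968 were lower than in WT (median -0.32). Against *Mgp*-KO 192 of 4967 were lower (median -0.15). Without setting the median gene to 0, 5 of 14 were lower than in WT (median -0.88). The summed level of the list was 1212, 1836 and 616 CPM in members, and it was lowest in *Pd*-KO also in the other *Pdgfra*-positive cells (2159, 2807 and 1235 CPM) and in free RNA (1445, 2764 and 854 CPM). *Cxcl1*, a neutrophil chemokine, was at 219, 369 and 40.7 CPM and *Ccl2*, a monocyte chemokine, at 149, 238 and 19.8 CPM. In *Mgp*-KO, *Cxcl13*, which attracts B cells, and *Il6* were the 2 genes over 2-fold higher, and *Cxcl14* and *Ccl19* were the 2 lower, whereas in cells of 5000 to 10000 UMIs 5 of 14 were higher and 2 lower. *Cxcl13* was at 49.1, 314 and 46.0 CPM and *Il6* at 11.7, 40.4 and 11.7 CPM. *Cxcl13* was found in 24.1%, 30.4% and 16.3% of members, and in *Mgp*-KO the top 1% of members held 20.9% of its UMIs. It was higher toward the lower end of *Pi16* in *Mgp*-KO, at 479 CPM with 5 to 9 *Pi16* UMIs and 137 CPM with 40 or more. Of 11 complement genes none was higher in any genotype comparison, and 1 was lower in *Mgp*-KO over WT, 2 in *Pd*-KO over WT and 2 in *Pd*-KO over *Mgp*-KO. *C3*, the central complement component, was at 1162, 1389.8 and 684 CPM.

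Some matrix genes were higher in *Pd*-KO than in *Mgp*-KO. *Eln* was at 1137, 1101 and 2809.8 CPM, so that WT and *Mgp*-KO were close and *Pd*-KO stood above both, with log2 ratios of 1.15 over WT and 1.29 (95% interval, 1.27 to 1.31) over *Mgp*-KO. *Fbn2*, fibrillin 2, was the other elastic fibre gene past 2-fold in both, but it spans 202 kb. Of all genes, 14.9% were over 2-fold higher in *Pd*-KO than in WT and 1.16% than in *Mgp*-KO, so the count over WT was near that share. In cells of 5000 to 10000 UMIs 1 of the 14 elastic fibre genes was past 2-fold higher in each of these comparisons in place of 2, and in male cells 1 over WT. The same cells of 5000 to 10000 UMIs gave 1 lower gene over WT. The count of higher genes was 3 over WT without setting the median gene to 0, and 3 over *Mgp*-KO in female cells. The median of the 14 elastic fibre genes was 0.26 in *Pd*-KO over *Mgp*-KO. *Col1a1* was at 18432, 13381 and 24159 CPM and *Col3a1* at 32115, 26118 and 39925 CPM, and none of the 12 collagen genes was past 2-fold between the knockouts, with a median of 0.46. *Col5a3* was the single collagen gene past 2-fold over WT, lower in *Mgp*-KO, and without setting the median gene to 0 no collagen gene was. *Cthrc1*, a collagen triple helix repeat protein of remodelling fibroblasts, was at 95.04, 51.3 and 164 CPM, and *Adamts16*, a matrix protease, at 12.9, 17.4 and 54.5 CPM. Of 20 matrix crosslinking and protease genes none was higher in any genotype comparison, and 2 were lower in *Mgp*-KO over WT, 2 in *Pd*-KO over WT and 1 in *Pd*-KO over *Mgp*-KO, where 2.32%, 4.39% and 2.64% of all genes were lower.

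Of 14 TGF-beta response genes, 5 were over 2-fold lower in *Pd*-KO than in WT and 4 were lower than in *Mgp*-KO, where 4.39% and 2.64% of all genes were. In *Mgp*-KO 1 was higher and 2 were lower than in WT. Of 16 TGF-beta ligands, receptors and other components, 4 were higher and 1 lower in *Pd*-KO than in WT, 1 was higher in *Mgp*-KO, and none was past 2-fold between the knockouts, where 14.9%, 11.6% and 1.16% of all genes were higher. *Ccn2*, a matricellular protein, was at 28.7, 29.9 and 14.2 CPM. *Junb*, also on the immediate early list, was lower in both comparisons, and *Acta2* and *Tagln*, also mural markers, were lower than in WT alone. Among bone morphogenetic protein components and Id targets, *Id1*, an inhibitor of DNA binding, was at 27.5, 29.3 and 4.86 CPM and *Id3* at 279.9, 377 and 183 CPM. *Id1*, *Id3* and *Bmp2* were the 3 genes of 20 over 2-fold lower in *Pd*-KO than in *Mgp*-KO. In *Mgp*-KO the counts over WT were 2 higher and 1 lower of 20, and 1 of the 2 higher genes was *Smad6*, of 69.0 kb. In *Pd*-KO the counts over WT were 3 higher and 2 lower of 21. The counts higher were near the shares of all genes (11.6% and 14.9%), and 2.32% and 4.39% of all genes were lower. Of 19 Wnt genes, 2 were higher in *Mgp*-KO, and 4 were higher and 1 lower in *Pd*-KO, near the shares of all genes that were higher (11.6% and 14.9%). *Wnt2* was at 107, 121 and 195 CPM and the antagonist *Dkk2*, of 95.01 kb, at 52.6, 84.4 and 136 CPM.

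Many guidance genes and some transcription factors that were higher in the knockouts have long spans, and of all genes 11.6% were higher in *Mgp*-KO and 14.9% in *Pd*-KO. Of 13 semaphorin and guidance genes, 6 were over 2-fold higher and 1 lower in *Mgp*-KO, and 9 were higher and 1 lower in *Pd*-KO, with *Slit3* at 84.0, 628 and 644 CPM over a span of 587 kb. *Sema3e* stood apart in being higher in *Mgp*-KO than in *Pd*-KO, at 8.79, 75.6 and 24.6 CPM. Of 17 adipogenic transcription factors, 5 were higher in each knockout, all over 50 kb, such as *Zfp521* at 30.5, 176 and 295 CPM. In *Mgp*-KO 1 was lower and in *Pd*-KO 4 were, where 2.32% and 4.39% of all genes were lower. The short gene *Cebpa*, which acts with *Pparg*, was lower at 12.3, 5.02 and 4.30 CPM, and *Cebpb* and *Cebpd* were lower in *Pd*-KO alone past 2-fold at 152, 208 and 75.3 and 362, 637 and 159 CPM. The 13 growth factor and receptor genes gave 5 higher and 1 lower in each knockout and none past 2-fold between the knockouts. Of 12 insulin-like growth factor genes, *Igf1r* of 281 kb was the higher gene in both knockouts, and 1 gene was over 2-fold lower in *Pd*-KO than in WT. *Igfbp3* was lower in *Pd*-KO than in *Mgp*-KO at 184, 366 and 151 CPM, where 2.64% of all genes were lower. Among 15 interferon response genes *Ifit1* (41.6, 37.8 and 87.5 CPM) and *Rsad2* (9.36, 6.65 and 18.0 CPM) were over 2-fold higher in *Pd*-KO than in *Mgp*-KO, where 1.16% of all genes were, and none was lower.

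Of the 7 Areg genes, 4 were over 2-fold lower in *Mgp*-KO than in WT (median -1.11) and 3 in *Pd*-KO (median -0.87), where 2.32% and 4.39% of all genes were. None was higher over WT, and none differed past 2-fold between the knockouts. *Gdf10* was at 97.2, 35.8 and 30.7 CPM and *Clec11a* at 55.3, 21.3 and 33.7 CPM. *F3* was at 44.6, 24.9 and 17.8 CPM. The share of members in the Areg class, given above, was also highest in WT, and WT members were the deepest. The part of either in these levels was not tested. *Fmod*, fibromodulin, a small proteoglycan of tendon and fascia, was lower in both knockouts at 4.29, 0.398 and 0.899 CPM. Mineralization genes were at low levels in members of every library. *Spp1*, osteopontin, was at 0.491, 0.438 and 0.366 CPM (12, 11 and 11 UMIs), *Alpl*, tissue-nonspecific alkaline phosphatase, at 1.35, 0.756 and 0.333 CPM and *Runx2* at 2.25, 3.58 and 1.90 CPM, none of them over 2-fold higher in a knockout. *Sox9* was at 6.79, 6.61 and 4.40 CPM, and *Sox5*, the gene of the list with the largest log2 ratios over WT (4.38 in *Mgp*-KO and 4.77 in *Pd*-KO), differed by 0.37 between the knockouts.

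The knockout libraries also differed from each other in further genes. *Tnfaip6* gave a log2 ratio of -1.82 (95% interval, -1.85 to -1.80) for *Pd*-KO over *Mgp*-KO. *Apoe* gave -2.80 (95% interval, -2.85 to -2.75) and *Apoc1*, its neighbour in the genome, -3.93, with *Apoc1* at 156, 50.1 and 3.40 CPM. *Mrgprg*, an orphan receptor of the Mas-related family, was at 34.5, 96.2 and 1.57 CPM and found in 194 of 1617, 518 of 3152 and 29 of 2744 members. *Sntg1*, which encodes a syntrophin and spans 938 kb, was at 3.27, 177 and 0.833 CPM. In *Mgp*-KO it was found in 905 members (28.7%), with at most 55 UMIs in 1 cell.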

How the data were processed

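The 3 libraries were prepared with 10x Genomics 3′ v3 chemistry, and the authors deposited unfiltered UMI counts of 32285 genes in every barcode. The submitters' processing notes name Cell Ranger 6.1.1 and GRCm39, the study's methods name the same version with its default settings and mm10, and the headers of the deposited files name version 4 (WT) and 7.1.0 (both knockouts). By default version 6.1.1 leaves intronic reads out and 7.1.0 counts them, and these sources do not settle which applied to each file. Counts were read as deposited. The members and gene lists were chosen with earlier results of these data known.

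Counts were summed over cells and divided by the summed total. Log2 ratios used a pseudocount of 0.5 UMIs, genes with at least 100 UMIs over the populations compared, a 2-fold limit, and centring on the median gene. Genes used in the rule, *Xist*, *Tsix*, the Y-linked genes *Ddx3y*, *Uty*, *Kdm5d* and *Eif2s3y*, and mitochondrial genes were left out. Other genes of the X chromosome were kept. Intervals were exact Poisson, Clopper-Pearson or conditional binomial at 95%. Genes were named by rank of the log2 ratio (at least 50 CPM on the higher side) and from the lists. Spans came from GENCODE M21 (GRCm38), found for 99.9% of 11679 genes. No doublet caller was run, and free RNA was read from barcodes of 10 to 100 UMIs. Thinning used 2000 or 5000 UMIs, and alternatives are given in the closing section. Python 3.11.15, numpy 2.4.6, scipy 1.17.1, pandas 2.3.3 and matplotlib 3.10.9 were used. The calculation of the ratios was tested on simulated Poisson counts with planted changes. That simulation held no spread between mice, no effect of span and no free RNA, so it cannot speak to these. 1 gene of the lists is not reported here by name.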

Additional observations from a re-analysis of the deposited data

How the results depend on the processing

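No paired analysis was possible because each genotype had 1 library. The share of members among *Pdgfra*-positive cells moved past its counting interval in most settings. In WT (20.99%) it was 18.4% after thinning to 5000 UMIs, 19.5% in cells of 5000 to 10000 UMIs, 16.5% with at least 10 *Pi16* UMIs, 19.1% with no *Krtdap* UMI, 15.8% from 500 UMIs up, 15.8% in female cells and 24.1% in male cells. In *Mgp*-KO (34.6%) it was 30.1% after thinning, 23.4% with at least 10 *Pi16* UMIs, 32.6% with no *Krtdap* UMI, 28.2% in female cells and 44.5% in male cells. In *Pd*-KO (43.0%) it was 40.8% after thinning, 37.7% in the depth window, 36.4% with at least 10 *Pi16* UMIs, 38.1% with no *Krtdap* UMI, 34.5% in female cells and 49.7% in male cells.

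The counts of genes past 2-fold were 1580 (*Mgp*-KO over WT), 2240 (*Pd*-KO over WT) and 445 (*Pd*-KO over *Mgp*-KO). They became 2872, 3747 and 1135 with genes of at least 20 UMIs, 933, 1384 and 214 with at least 500 UMIs, and 249, 406 and 223 with spans under 20 kb, where fewer genes were tested. *Pd*-KO over WT gave 1119 in the depth window. Members over other *Pdgfra*-positive cells (654) gave 261 with at least 500 UMIs and 375 in the depth window. Members over *Krtdap*-positive cells (57) gave 24 with at least 500 UMIs, 16 in the depth window and 37 with at least 10 *Pi16* UMIs.

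For single genes in *Pd*-KO over *Mgp*-KO, *Car3* turned to -1.26 in female cells and *Hba-a1* to 1.44 in male cells. Without members holding other cell types' markers, *Hba-a1* turned to 0.31 and *Hbb-bs* to 0.16. The cause was not tested. Of the values for single genes, 673 kept their direction and side, 28 moved and 4 reversed. With 1 library per genotype, no spread between mice could be measured, and the sequencing depth of WT set a looser *Pi16* limit there.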

Other observations

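Hemoglobin transcripts in members came from few cells. *Hbb-bs* was at 96.8, 75.3 and 2.20 CPM, but 1 cell held 1834 of 2368 UMIs in WT and 1 cell held 1169 of 1891 in *Mgp*-KO, against at most 2 per cell in *Pd*-KO. In WT the gene was found in 25.1% of members, against 1.46% and 2.30% in the knockouts, and the 4 erythrocyte markers summed to 183, 138 and 4.897 CPM in members and to 31891, 1326 and 626 CPM of free RNA. *Acta2* was likewise held by few cells in the knockouts, where the top 1% of members carried 93.1% and 94.96% of its UMIs, against 59.3% in WT. *Glycam1* was spread over 58.5% of WT members, with 9.92% of its UMIs in the top 1%.

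*Lars2*, which encodes mitochondrial leucyl-tRNA synthetase, was at 437, 60.2 and 120.2 CPM in members, with log2 ratios of -2.98 in *Mgp*-KO and -2.02 in *Pd*-KO. The median mitochondrial share of members' UMIs was 2.14%, 1.39% and 1.87%.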
